A study of Mus musculus with 12 samples.

Results

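The genes described here encode SR proteins, heterogeneous nuclear ribonucleoproteins (hnRNPs) and CLK kinases, measured by RNA sequencing in embryonic fibroblasts of the mouse, cells of connective tissue taken into culture. Members were taken by gene symbol from the deposited expression table, as Srsf followed by a number, Hnrnp or Hnrp followed by letters or numbers, and Clk1 to Clk4. The rule found 35 of 24458 genes, of which 11 were SR proteins, 20 hnRNPs and 4 CLK kinases. Of these, 0 had a mean normalized count under 10, so all 35 entered the tests. Each of 3 groups had 4 libraries, from cells kept in control medium (untreated), given 50 µM apigenin for 24 h, or given 50 µM chrysin for the same time. Chrysin and apigenin are plant flavones that differ by a hydroxyl group on the B ring, which chrysin lacks. The labels describe cells grown in flasks up to the 5th passage. They give no genotype or strain, and do not say whether the control medium contained the solvent of the flavones or whether the libraries of a group came from separate cultures. P-values therefore measure the spread between these libraries, which may be technical.

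SR proteins bind exonic sequences and recruit the spliceosome through a domain rich in arginine and serine. CLK kinases phosphorylate that domain and release SR proteins from nuclear speckles, where they are stored. hnRNPs coat nascent transcripts, often oppose SR proteins at splice sites, and also act in export, stability and translation of messenger RNA. Many genes of both families limit their own output through alternative exons that send the transcript to nonsense-mediated decay. The deposited values are 1 per gene, so coding and decay-prone transcripts of a gene were counted together.

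The promoters below belong to members whose responses carry the results. Srsf3 and Srsf7 encode closely related SR proteins that were lower with apigenin, while Hnrnpd and Hnrnpdl are related neighbours on chromosome 5 whose responses to chrysin had opposite signs. Each run gives the 250 bases before the RefSeq start, 5′ to 3′ on the gene's strand (GRCm38.p6). Capitals mark matches to 5 patterns searched on both strands, namely the CCAAT box, the TATA box as TATAAA, the cyclic AMP element as TGACGTCA, the ETS-type site as CCGGAAG and the E-box as CACGTG, none of which contains another.
Srsf3 (chr17:29032410-29032659, plus strand): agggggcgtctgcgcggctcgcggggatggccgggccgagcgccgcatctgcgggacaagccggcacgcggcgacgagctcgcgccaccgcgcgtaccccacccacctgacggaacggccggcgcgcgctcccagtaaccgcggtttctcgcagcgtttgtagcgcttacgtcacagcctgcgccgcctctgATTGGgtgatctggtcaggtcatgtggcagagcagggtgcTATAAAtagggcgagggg
Srsf7 (chr17:80207306-80207555, minus strand): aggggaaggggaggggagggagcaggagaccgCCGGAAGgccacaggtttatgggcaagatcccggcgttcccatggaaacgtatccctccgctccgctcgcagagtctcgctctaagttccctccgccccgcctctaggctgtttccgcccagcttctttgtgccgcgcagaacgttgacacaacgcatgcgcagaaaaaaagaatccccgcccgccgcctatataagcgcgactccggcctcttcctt
Hnrnpd (chr5:99978939-99979188, minus strand): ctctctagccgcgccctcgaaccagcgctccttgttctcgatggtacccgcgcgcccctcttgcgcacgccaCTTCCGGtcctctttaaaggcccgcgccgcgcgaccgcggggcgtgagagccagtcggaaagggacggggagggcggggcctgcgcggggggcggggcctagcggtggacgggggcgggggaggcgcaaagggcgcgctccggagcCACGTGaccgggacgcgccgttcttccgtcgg
Hnrnpdl (chr5:100039223-100039472, minus strand): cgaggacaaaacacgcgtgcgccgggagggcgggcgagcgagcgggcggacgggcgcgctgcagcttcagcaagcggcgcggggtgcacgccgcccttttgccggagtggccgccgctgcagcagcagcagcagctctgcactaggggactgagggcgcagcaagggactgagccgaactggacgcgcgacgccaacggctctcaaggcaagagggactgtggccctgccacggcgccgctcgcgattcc

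The Srsf3 window held CCAAT, read as ATTGG, at position -58 and TATAAA at -18, counted from the start. The Srsf7 window held CCGGAAG at -218. The Hnrnpd window held CCGGAAG, read as CTTCCGG, at -178 and CACGTG at -32, and the Hnrnpdl window held 0 matches. Promoters were listed for 32 of the 35 members. CCGGAAG was in 7 of these 32 (21.9%) and in 7.05% of 27025 promoters of the same length. CCAAT was in 16 (50%) and in 34.5% of all, TATAAA in 3 (9.38%) and in 13% of all, CACGTG in 3 (9.38%) and in 6.05% of all, and TGACGTCA in 1 (3.12%) and in 1.62% of all. The median GC content was 64.8% in the member promoters and 52% in all. A match describes letters only.

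Recovered totals were 4298640 to 15512635 reads per library, and a count of 3 reads, the limit that a count of 0 allows, corresponded to a normalized count of 1.44 to 6.24. These limits cover counting error only. All 11 fibroblast markers examined had a mean normalized count of at least 10, among them the collagen Col1a1 and the intermediate filament gene Vim. Their summed normalized counts were 237017 to 252653 untreated, 163564 to 186416 with apigenin and 197181 to 251416 with chrysin. With apigenin 9 of the 11 fell and 1 rose, against 23.2% and 23% of all genes tested (limma adjusted p under 0.05). With chrysin 7 fell and 1 rose, against 26.7% and 26.3%. Of 13 markers of other cell types 6 passed the same minimum, with sums of 719 to 814, 962 to 1124 and 800 to 878. These were Cd68, a macrophage lysosomal gene (mean normalized count 492.5), the smooth muscle myosin Myh11 (269.7), the neuronal tubulin Tubb3 (58.0), Sox2 (37.2), the leukocyte gene Ptprc (18.1) and the macrophage gene Adgre1 (10.3). Cd68 rose with apigenin (log2 difference 1.46, limma adjusted p = 1.22e-08), Tubb3 fell with apigenin and chrysin (-3.68 and -2.3), and Myh11 fell with apigenin (-1.23) and rose with chrysin (0.74). The defining markers Epcam and Cdh1 (epithelium), Pecam1 and Cdh5 (endothelium) and Myod1 (muscle) had mean normalized counts of 0.1 to 1.3, and the epithelial keratins Krt8 and Krt18 had 0.1 and 3.6. The part that the shifts in these markers play in the results below was not tested. In these bulk libraries, fewer cells of a type and less RNA per cell cannot be told apart.

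Some libraries stood apart from others of their group. Untreated replicate 1, the shallowest untreated library, was the highest of the 4 in 28 of 35 members (80%), against 32.3% of all genes tested, and untreated replicate 4, the deepest, was the lowest in 25 (71.4%), against 23.4%. Chrysin replicate 3 was the highest of its group in 18 members (51.4%), against 28.4% of all genes. Chrysin replicate 1, the deepest, was the lowest in 18 (51.4%), against 27.4%, and replicate 2, the shallowest, the highest in 8 (22.9%), against 23.4%. Apigenin replicate 2, the deepest, was the lowest in 20 (57.1%), against 24.9%. Apigenin replicate 1, the shallowest, was the highest in 17 (48.6%), against 27.8%. The part of depth in these patterns was not tested. The apigenin libraries divided into replicates 1 and 3 and replicates 2 and 4. Replicates 1 and 3 both lay above replicates 2 and 4 in 24 of 35 members (68.6%) and both lay below them in 2 (5.71%), where the shares over all 12198 genes tested were 34.1% and 34.6%. Calls of the members given in full that changed with 1 pair alone are given beside the result.

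In untreated fibroblasts, levels per kilobase of exon spanned from 1530 ± 63.7 normalized counts for Hnrnpk, which binds C-rich sequences, to 5.23 ± 2.14 for Clk2 (mean ± SD, n = 4). Exon lengths came from GENCODE vM1 on mm9 and joined the exons of all listed transcripts of a gene. They can exceed the length of the transcripts present, and the SDs do not include this. Srsf5 was the highest SR protein gene at 986 ± 79.3 per kilobase. Its range of mean ± SD overlapped those of Hnrnpab (952 ± 83.5) and Hnrnpul1 (903 ± 42.8). The next SR protein gene, Srsf6, stood at 294 ± 17.7. Srsf9, Srsf2, Srsf1 and Srsf11 lay between 239 ± 27.7 and 215 ± 16.9, with overlapping ranges of mean ± SD. Srsf3 (174 ± 13), Srsf10 (131 ± 11.8), Srsf7 (103 ± 16.5) and Srsf4 (78.4 ± 12.2) were lower, and Srsf12 was the lowest at 11.4 ± 2.21. Among the kinases the order per kilobase was Clk3 (236 ± 24.5), Clk1 (98.8 ± 6.75), Clk4 (48.9 ± 4.56) and Clk2, with gaps larger than the SDs between libraries. The order of Clk3 and Clk1 rests on their exon lengths, 2.494 and 8.139 kb. Before division by length, the mean untreated normalized count was 589.5 for Clk3 and 804.1 for Clk1. Hnrnpa1, usually among the most abundant hnRNPs, was listed at only 27.9 ± 5.51 per kilobase and Hnrnpa3 at 15.1 ± 2.41. A row described as an Hnrnpa1 pseudogene, Gm5643, held a mean normalized count of 50.1 over all libraries, against 36.1 for Hnrnpa1 itself. The sources used here do not say how reads shared between near-identical copies were counted, so the levels of Hnrnpa1 and Hnrnpa3 are uncertain.

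**Figure D1:**
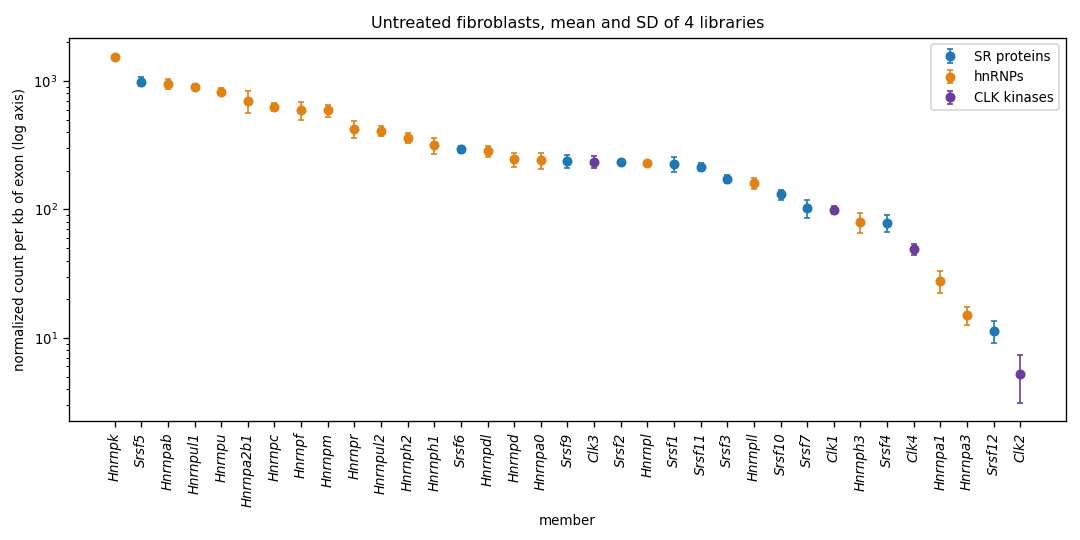
Mean normalized count per kilobase of exon (log axis) in the 4 untreated libraries, with SD, for each of the 35 members ordered by level and coloured by family. Hnrnpk is highest at 1530 and Clk2 lowest at 5.23, and Srsf5 is the only SR protein gene among the first 10.

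The first comparison asked how apigenin changed these genes. With apigenin most SR protein genes and many hnRNP genes were lower than in untreated cells. The widest fall was 2-fold among SR proteins (Srsf7) and 2.94-fold among hnRNPs (Hnrnpa3, whose level is uncertain). Next among hnRNPs was Hnrnpd at 2.32-fold. Of 11 SR protein genes 8 fell and 0 rose, of 20 hnRNP genes 10 fell and 0 rose, and of 4 CLK genes Clk1 and Clk4 fell and 0 rose (limma, Benjamini-Hochberg adjusted p under 0.05, n = 4 per group). Over all genes tested 23.2% fell and 23% rose. At an unadjusted p under 0.05, 1 hnRNP gene and 0 SR protein or CLK genes were higher, and limma-voom on the recovered reads called 0 higher in each family. The median log2 difference was -0.67 for SR proteins, -0.52 for hnRNPs and -0.25 for CLK kinases, and 0.01 over all genes tested. Groups did not overlap, with all 4 apigenin values lower, in 7 SR protein genes, 10 hnRNP genes and 2 CLK genes, against 22.8% of all genes, and 0 members had all 4 values higher, against 22.2% of all genes.

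Srsf7, an RNA export adaptor with a zinc knuckle, stood at 8.19, 7.63, 7.91 and 8.01 in untreated replicates 1 to 4, on the scale of log2 of the normalized count plus 1. It stood at 7.12, 6.93, 6.89 and 6.8 with apigenin and at 7.67, 7.91, 7.85 and 7.48 with chrysin. All apigenin libraries were lower than all others, and both pairs of apigenin libraries were alike. It fell by 1.0 ± 0.15 with apigenin (log2 difference ± SE, adjusted p = 5.47e-05), and with chrysin the difference was -0.21 ± 0.15 (95% CI -0.53 to 0.12, adjusted p = 0.274). Srsf3, the smallest SR protein, stood at 9.94, 9.79, 9.76 and 9.69 untreated, at 9.03, 9.0, 8.69 and 9.09 with apigenin, and at 9.52, 9.9, 10.04 and 9.63 with chrysin. Again the apigenin libraries alone were low, with chrysin and untreated values overlapping. Srsf3 fell by 0.85 ± 0.12 with apigenin (adjusted p = 2.89e-05) and differed by -0.03 ± 0.12 with chrysin (95% CI -0.28 to 0.23). Srsf10, a repressor of splicing when dephosphorylated, stood at 10.0, 9.85, 9.78 and 9.7 untreated, at 9.16, 9.14, 9.14 and 9.22 with apigenin, and at 9.44, 9.74, 9.92 and 9.67 with chrysin. Its 4 apigenin values, from 9.14 to 9.22, were under all others. It fell by 0.67 ± 0.11 (adjusted p = 6.86e-05).

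In other SR protein genes the fall differed between the apigenin libraries. Srsf2 (SC35, a marker of nuclear speckles) stood at 9.51, 9.48, 9.39 and 9.35 untreated, at 8.9, 8.25, 8.86 and 8.04 with apigenin, and at 8.95, 9.0, 9.33 and 9.11 with chrysin. All apigenin values were below the untreated ones, those of replicates 2 and 4 the most. It fell by 0.92 ± 0.16 (adjusted p = 0.000234). The annotation places Mfsd11 on the opposite strand over part of Srsf2, and the sources used here do not give the strand setting of the counting, so reads of these genes cannot be told apart. The same holds for Clk3 with Edc3, Clk4 with BC049762, Hnrnpab with Agxt2l2, Hnrnpd with Gm17092, Hnrnpf with 4933440N22Rik, Hnrnph3 with Rufy2, Hnrnpk with Rmi1, Hnrnpll with a U6 gene, Srsf1 with Gm11508 and Srsf4 with Gm12992. Srsf2 also overlaps 1110005A03Rik on the opposite strand, and Hnrnpa3, Hnrnpk, Hnrnpm and Hnrnpu each overlap another gene on their own strand, March2 in the case of Hnrnpm. Srsf6, with paired RNA recognition motifs, stood at 10.22, 10.01, 10.16 and 10.11 untreated, at 9.58, 9.12, 9.46 and 8.87 with apigenin, and at 9.57, 9.64, 9.74 and 9.44 with chrysin. Both treated groups were below all untreated libraries. It fell by 0.86 ± 0.13 with apigenin (adjusted p = 4.3e-05) and by 0.53 ± 0.13 with chrysin (adjusted p = 0.00258). Srsf1, the founding SR protein, stood at 10.59, 10.34, 10.24 and 10.14 untreated, at 9.82, 9.45, 9.78 and 9.47 with apigenin, and at 9.68, 10.0, 10.13 and 9.73 with chrysin. The highest chrysin value lay just under the lowest untreated value. It fell by 0.7 ± 0.13 with apigenin (adjusted p = 0.000273) and by 0.44 ± 0.13 with chrysin (adjusted p = 0.00758).

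Srsf5 stood at 12.06, 12.01, 11.87 and 11.82 untreated, at 11.69, 11.29, 11.61 and 11.34 with apigenin, and at 11.39, 11.78, 11.67 and 11.56 with chrysin. No treated value reached the untreated range in this gene, the most abundant of the family. It fell by 0.45 ± 0.1 with apigenin (adjusted p = 0.00195) and by 0.34 ± 0.1 with chrysin (adjusted p = 0.0115). Srsf11, a less typical SR protein, stood at 10.71, 10.62, 10.54 and 10.45 untreated, at 10.58, 9.65, 10.42 and 9.77 with apigenin, and at 10.74, 11.24, 11.24 and 10.97 with chrysin. Apigenin replicate 1 lay within the untreated range, replicate 3 just below it and replicates 2 and 4 far below it, while all chrysin libraries were above it. With apigenin it fell by 0.47 ± 0.18 (adjusted p = 0.0477), and with apigenin replicates 1 and 3 alone the difference was -0.08 (adjusted p = 0.648). Leaving out any untreated library, apigenin replicate 2 or 4, or chrysin replicate 2, 3 or 4 ended that call (adjusted p = 0.0514 to 0.138). The same call ended after quantile normalization (-0.41, adjusted p = 0.0881) and with no trend or robust estimation (adjusted p = 0.0816). It also ended with no filter (adjusted p = 0.0554) and in a fit of the 8 apigenin and untreated libraries alone (adjusted p = 0.0686). Srsf4, among the larger SR proteins, stood at 8.41, 8.08, 8.12 and 7.89 untreated, at 8.01, 7.94, 8.01 and 8.07 with apigenin, and at 7.88, 7.96, 7.86 and 8.02 with chrysin. Srsf9, with a short arginine-serine domain, stood at 8.55, 8.17, 8.25 and 8.4 untreated, at 8.19, 8.22, 8.28 and 8.07 with apigenin, and at 8.29, 8.18, 8.22 and 8.48 with chrysin. The groups overlapped in both genes. With apigenin Srsf4 and Srsf9 did not pass the test, at -0.12 ± 0.13 (95% CI -0.38 to 0.14) and -0.15 ± 0.12 (95% CI -0.4 to 0.1). Srsf12, known to antagonise other SR proteins, was at -0.25 ± 0.4 (95% CI -1.11 to 0.6), with 3 to 57 reads per library.

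**Figure D2:**
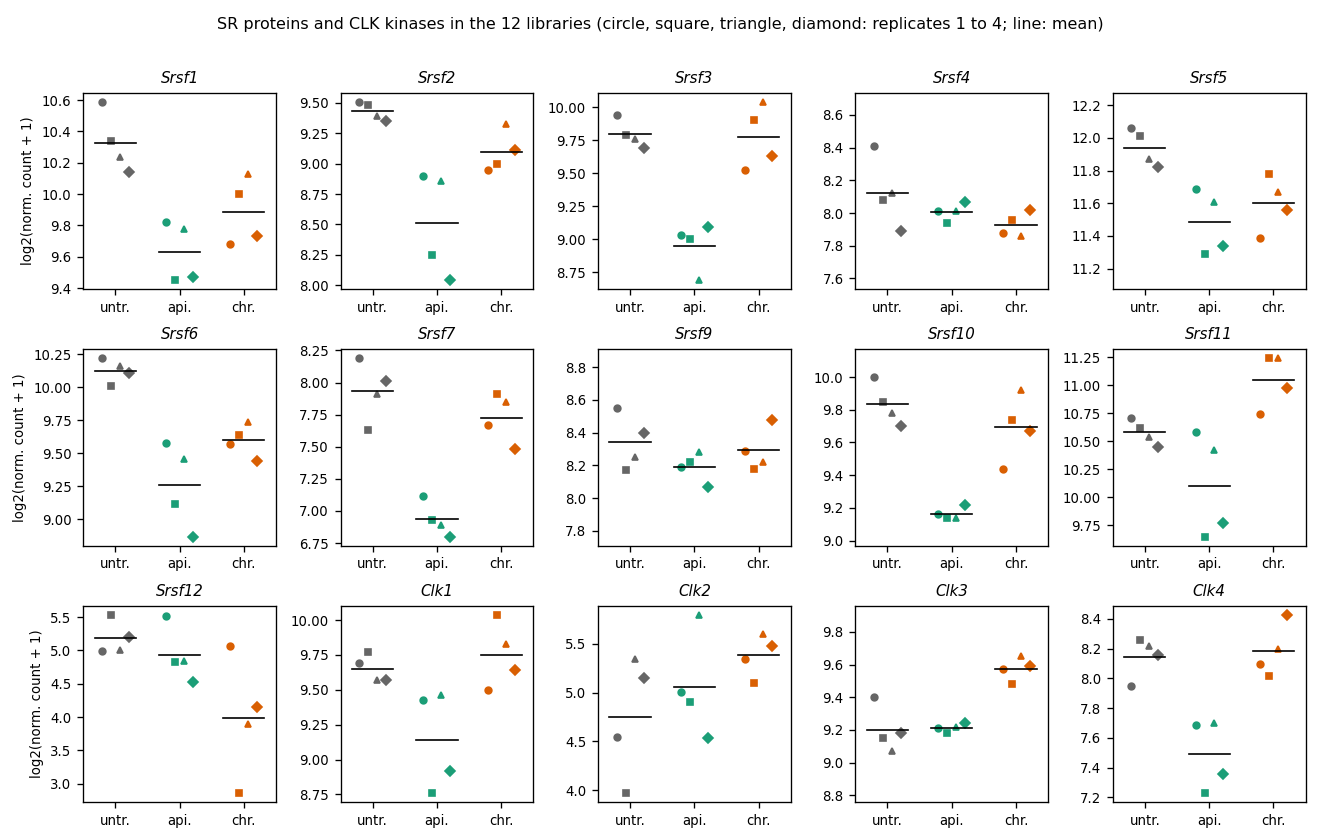
Levels of the 11 SR protein genes and 4 CLK genes, as log2 of the normalized count plus 1, in each of the 4 untreated, apigenin and chrysin libraries (points) with group means (lines); each panel has its own vertical range. Srsf3, Srsf7 and Srsf10 are low in all 4 apigenin libraries and overlap between untreated and chrysin, while Srsf11 and Clk1 divide the apigenin libraries.

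Among hnRNPs, Hnrnpa3, of the A/B group, stood at 6.15, 6.36, 6.26 and 6.66 untreated, at 5.25, 4.76, 5.26 and 3.94 with apigenin, and at 5.87, 5.67, 6.56 and 6.25 with chrysin. Every apigenin value was below every other value, the lowest in replicate 4. It fell by 1.56 ± 0.3 (adjusted p = 0.000439), with 15 to 157 reads per library. The difference was -1.1 with apigenin replicates 1 and 3 alone and -2.01 with replicates 2 and 4 alone. Hnrnpd (AUF1), which binds AU-rich elements and promotes messenger RNA decay, stood at 10.39, 10.35, 10.16 and 9.98 untreated, at 9.02, 8.98, 8.85 and 9.16 with apigenin, and at 9.48, 9.92, 10.23 and 9.75 with chrysin. The apigenin values were low in all 4 libraries alike. Hnrnpd fell by 1.21 ± 0.14 (adjusted p = 2.36e-06), the smallest p of any member in this comparison. Hnrnph1, which binds runs of G, stood at 11.11, 10.8, 10.75 and 10.69 untreated, at 10.15, 9.87, 10.12 and 9.86 with apigenin, and at 10.9, 11.33, 11.21 and 11.05 with chrysin. Its apigenin values were separate from both other groups. It fell by 0.83 ± 0.11 (adjusted p = 1.67e-05), while the related Hnrnph2 and Hnrnpf were at 0.0 ± 0.11 (95% CI -0.23 to 0.24) and 0.02 ± 0.1 (95% CI -0.19 to 0.22).

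Hnrnpm, a regulator of alternative exons, stood at 11.63, 11.47, 11.34 and 11.3 untreated, at 11.16, 9.97, 11.07 and 10.11 with apigenin, and at 10.74, 10.99, 11.11 and 10.92 with chrysin. All treated values were below the untreated ones, and apigenin replicates 2 and 4 were lower than replicates 1 and 3 by 1.07 on average, the widest such gap of any member. It fell by 0.86 ± 0.24 with apigenin (adjusted p = 0.0113). Hnrnpr, a relative of Syncrip, stood at 10.57, 10.56, 10.22 and 10.14 untreated, at 10.43, 9.13, 10.04 and 9.27 with apigenin, and at 9.54, 10.16, 10.26 and 9.94 with chrysin. Apigenin replicate 1 lay inside the untreated range. The difference was -0.65 ± 0.27 (adjusted p = 0.0633), without apigenin replicate 1 it was -0.89 (adjusted p = 0.00381), and with apigenin replicates 2 and 4 alone it was -1.17 (adjusted p = 4.39e-06). Hnrnpr also passed with limma-voom (-0.68, adjusted p = 0.0223), array weights (-0.8, adjusted p = 0.00886) and no filter (-0.65, adjusted p = 0.0484). Hnrnpa0, which binds AU-rich elements, stood at 9.6, 9.25, 9.31 and 9.16 untreated, at 8.64, 8.39, 8.8 and 8.37 with apigenin, and at 8.89, 8.87, 9.53 and 8.84 with chrysin. It was low in every apigenin library. It fell by 0.78 ± 0.15 (adjusted p = 0.000557).

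The other hnRNP genes that fell with apigenin were Hnrnpab, Hnrnpk, Hnrnpul1, Hnrnph3 and Hnrnpu, with log2 differences from -0.6 to -0.45, and they lay outside the rule for genes given in full. Hnrnpa1, Hnrnpa2b1, Hnrnpc, Hnrnpl, Hnrnpdl, Hnrnpll and Hnrnpul2 also did not pass. Among these Hnrnpll, known from T cell splicing, was at 0.27 ± 0.11 (adjusted p = 0.0584), and passed without apigenin replicate 2 (0.34, adjusted p = 0.0274) or replicate 4 (0.31, adjusted p = 0.0497), and with replicates 1 and 3 alone (0.44, adjusted p = 0.0047). Hnrnpdl was at -0.33 ± 0.16 (adjusted p = 0.102), and passed without apigenin replicate 4 (-0.46, adjusted p = 0.0215) and with replicates 1 and 3 alone (-0.58, adjusted p = 0.00277). Hnrnpl, at -0.1 ± 0.14 (adjusted p = 0.594), passed with replicates 2 and 4 alone (-0.44, adjusted p = 0.000583) and was at 0.24 with replicates 1 and 3 alone (adjusted p = 0.0574). With apigenin replicates 1 and 3 alone, 7 SR protein genes and 10 hnRNP genes fell, against 18.9% of all genes in that fit, and 1 member, Hnrnpll, rose, against 16.6%. With replicates 2 and 4 alone, 8 and 14 fell, against 27.6%, and 0 rose, against 27.3%.

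**Figure D3:**
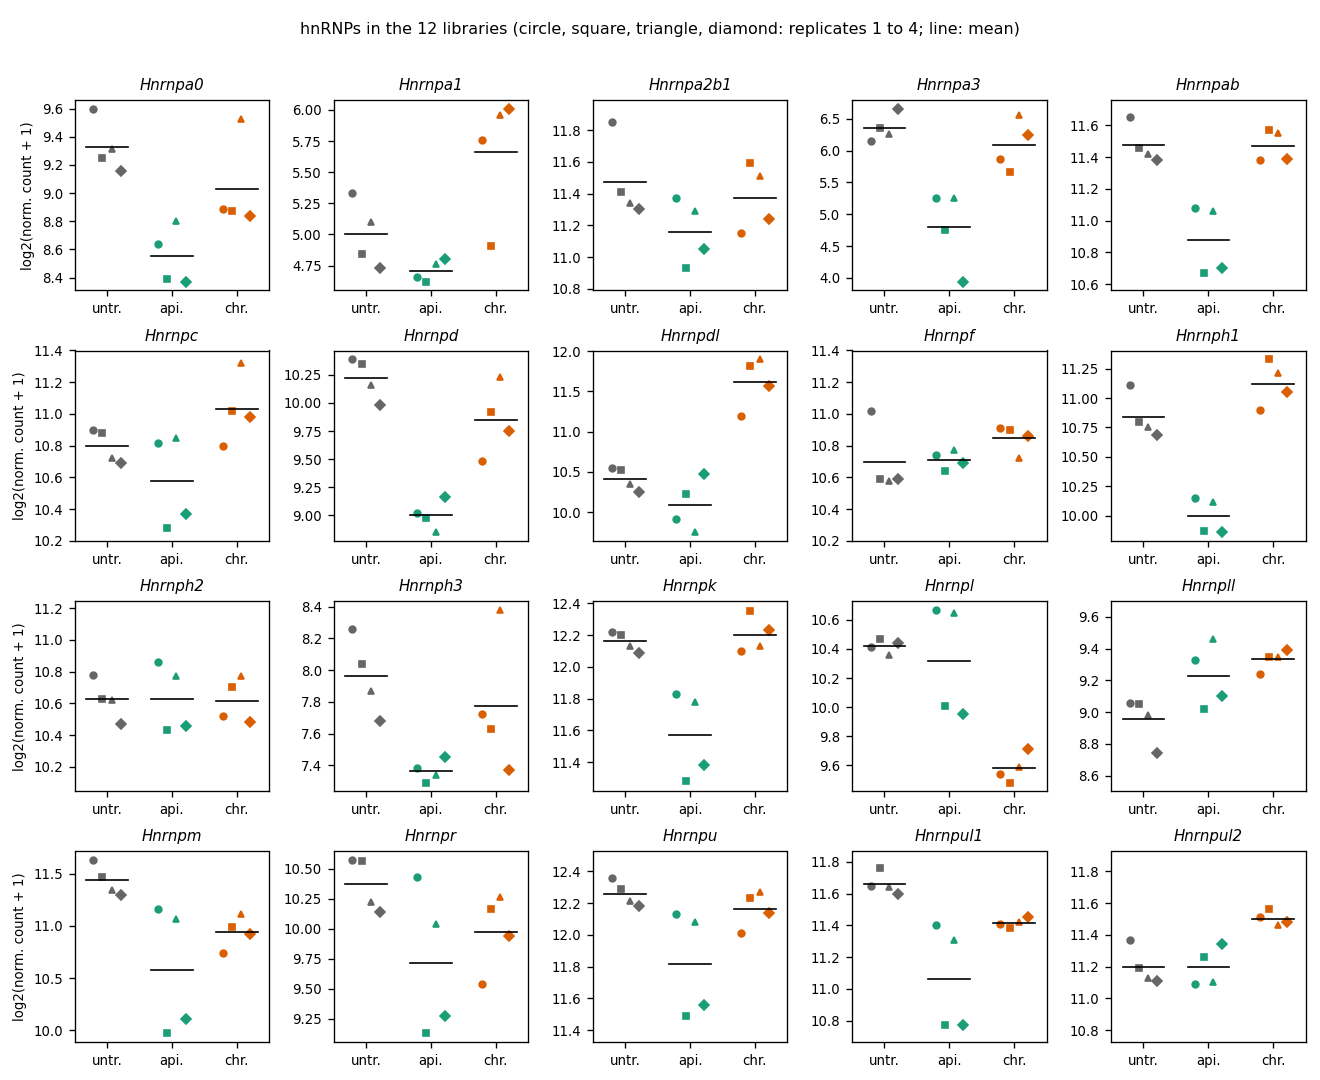
Levels of the 20 hnRNP genes, as log2 of the normalized count plus 1, in each library of the 3 groups (points) with group means (lines); each panel has its own vertical range. Hnrnpd and Hnrnph1 are low in all 4 apigenin libraries, Hnrnpdl is high in all 4 chrysin libraries, and Hnrnpl is low in all 4 chrysin libraries.

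CLK1 and CLK4 are close relatives that phosphorylate SR proteins. Clk1 stood at 9.69, 9.77, 9.57 and 9.57 untreated, at 9.43, 8.76, 9.46 and 8.92 with apigenin, and at 9.5, 10.04, 9.83 and 9.64 with chrysin. It was lower in all apigenin libraries, mainly in replicates 2 and 4. It fell by 0.51 ± 0.15 (adjusted p = 0.0111), and with apigenin replicates 1 and 3 alone the difference was -0.21 (adjusted p = 0.206). Clk4 stood at 7.95, 8.26, 8.22 and 8.16 untreated, at 7.69, 7.23, 7.7 and 7.36 with apigenin, and at 8.1, 8.02, 8.2 and 8.43 with chrysin. The apigenin values did not reach the other groups. It fell by 0.65 ± 0.14 (adjusted p = 0.00134). Clk3 stood at 9.4, 9.15, 9.07 and 9.18 untreated, at 9.21, 9.18, 9.22 and 9.24 with apigenin, and at 9.57, 9.48, 9.65 and 9.59 with chrysin. Apigenin values lay inside the untreated range (0.01 ± 0.09, 95% CI -0.19 to 0.21), and chrysin values above it. Clk2 stood at 4.54, 3.97, 5.34 and 5.15 untreated, at 5.01, 4.9, 5.8 and 4.53 with apigenin, and at 5.34, 5.1, 5.6 and 5.48 with chrysin. With 13 to 73 reads per library its groups overlapped, and its difference with apigenin was 0.31 ± 0.35 (95% CI -0.42 to 1.04).

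**Figure D4:**
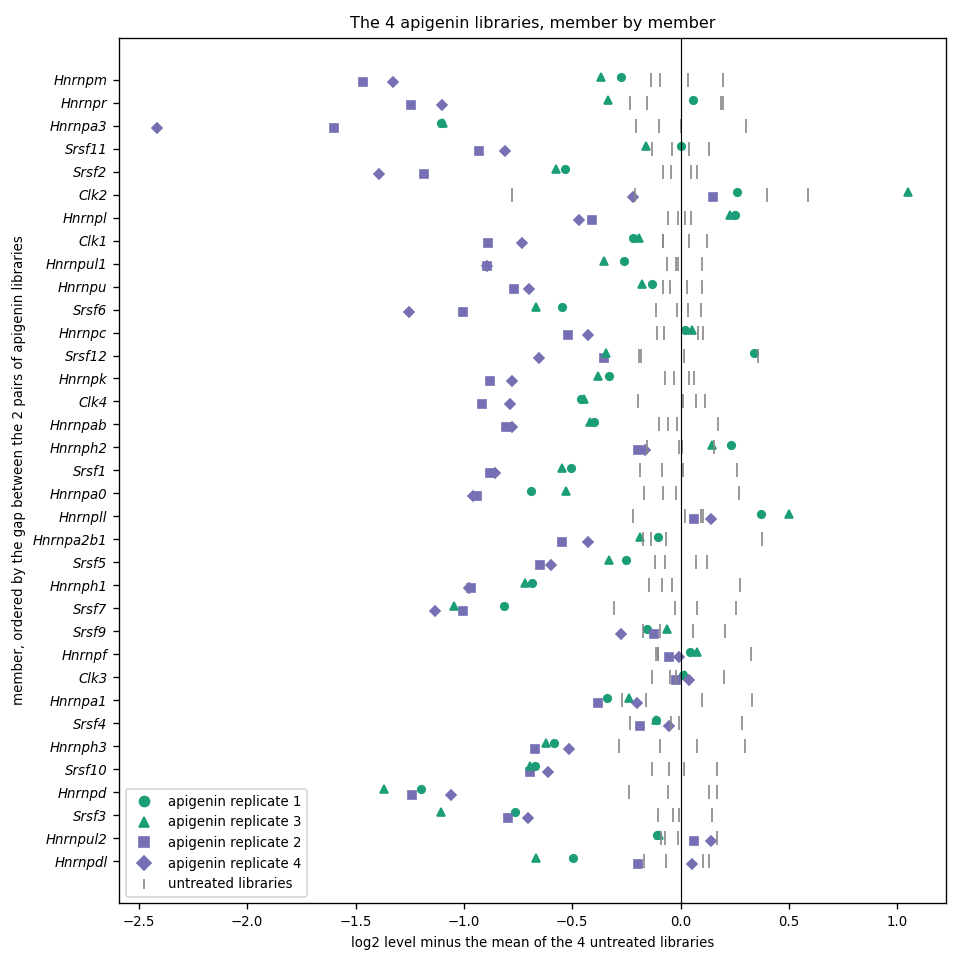
Log2 level of each member in the 4 apigenin libraries (coloured points) relative to the mean of the 4 untreated libraries (grey ticks), ordered by the gap between replicates 1 and 3 and replicates 2 and 4. Hnrnpm and Hnrnpr, at the top, divide by 1.07 and 1.04, whereas Srsf3, Srsf7, Srsf10 and Hnrnpd lie low in all 4 libraries.

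The second comparison asked how chrysin changed the same genes against the same 4 untreated libraries. With chrysin the 3 families had no direction in common. Differences were negative in all SR protein genes except Srsf11 and positive in all 4 CLK genes (0.04 to 0.63), though many of these did not pass the test. The hnRNP genes went both ways (-0.84 to 1.2). Hnrnpdl was 2.3-fold higher, Hnrnpl was 1.79-fold lower, and 23 of the 35 members did not pass the test. Of 11 SR protein genes 4 fell (Srsf1, Srsf5, Srsf6 and Srsf12) and 1 rose (Srsf11), of 20 hnRNP genes 2 fell (Hnrnpl and Hnrnpd) and 4 rose (Hnrnpdl, Hnrnpll, Hnrnpul2 and Hnrnph1), and of 4 CLK genes Clk3 rose and 0 fell. Over all genes 26.7% fell and 26.3% rose. For SR proteins the shares were 36.4% and 9.09%, and for hnRNPs 10% and 20%, the latter not above that background. At an unadjusted p under 0.05, 0 CLK genes were lower, and limma-voom also called 0 lower. Medians were -0.21 for SR proteins, -0.05 for hnRNPs and 0.24 for CLK kinases, beside -0.03 over all genes tested. All 4 chrysin values were above all untreated values in 5 members and below them in 4 SR protein genes and 3 hnRNP genes, against 25.7% of all genes in each direction.

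Hnrnpdl, a relative of Hnrnpd that binds AU-rich RNA and regulates its own splicing, stood at 10.55, 10.52, 10.35 and 10.25 untreated, at 9.92, 10.22, 9.75 and 10.47 with apigenin, and at 11.2, 11.81, 11.9 and 11.57 with chrysin. All chrysin values were above all others, and apigenin values overlapped the untreated ones. It rose by 1.2 ± 0.16 (adjusted p = 1.69e-05), the smallest p of any member in this comparison. Hnrnpd, 54.6 kb away on the same strand of chromosome 5 in mm9 (Hnrnpd at 100387445 to 100407957, Hnrnpdl at 100462596 to 100468683), fell by 0.37 ± 0.14 (adjusted p = 0.0302). That last call ended without untreated replicate 1 or 2 or chrysin replicate 1 or 4 (adjusted p = 0.0783 to 0.116). The annotation lists a single coding gene, 4930524J08Rik, between them.

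Hnrnpl, which binds CA repeats, stood at 10.41, 10.47, 10.36 and 10.44 untreated, at 10.67, 10.01, 10.65 and 9.95 with apigenin, and at 9.54, 9.48, 9.59 and 9.71 with chrysin. All chrysin values were below all others, and the apigenin libraries lay on both sides of the untreated range. It fell by 0.84 ± 0.14 with chrysin (adjusted p = 0.000108). Its relative Hnrnpll stood at 9.06, 9.05, 8.98 and 8.74 untreated, at 9.33, 9.02, 9.46 and 9.1 with apigenin, and at 9.24, 9.35, 9.35 and 9.39 with chrysin. Here the chrysin values were above all untreated ones. It rose by 0.38 ± 0.11 (adjusted p = 0.00955). Hnrnpul2, a relative of the scaffold protein gene Hnrnpu, rose by 0.3 ± 0.08 (adjusted p = 0.00521). Hnrnph1 rose by 0.29 ± 0.11 (adjusted p = 0.0433), with overlapping groups, and that call ended with the replicate block (adjusted p = 0.0524), after quantile normalization (0.12, adjusted p = 0.363), and without any 1 of untreated replicates 2 to 4 or chrysin replicates 2 to 4 (adjusted p = 0.0576 to 0.149).

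Hnrnpa1 stood at 5.33, 4.84, 5.1 and 4.73 untreated, at 4.66, 4.62, 4.76 and 4.8 with apigenin, and at 5.76, 4.91, 5.96 and 6.01 with chrysin. Chrysin replicate 2 lay within the untreated range and the other chrysin values above it. The difference with chrysin was 0.66 ± 0.29 (adjusted p = 0.0647), and it passed without chrysin replicate 2 (0.91, adjusted p = 0.0102) or untreated replicate 1 (0.78, adjusted p = 0.0499). It also passed with limma-voom (0.79, adjusted p = 0.0194), quantile normalization (0.95, adjusted p = 0.0109), array weights (0.71, adjusted p = 0.0299) and no trend or robust estimation (0.66, adjusted p = 0.027). Hnrnpm and Hnrnpr were at -0.5 ± 0.24 (adjusted p = 0.0998) and -0.4 ± 0.27 (adjusted p = 0.232), and Hnrnpa0 at -0.3 ± 0.15 (adjusted p = 0.112). Without chrysin replicate 3 Hnrnpa0 fell by 0.47 (adjusted p = 0.00788). Hnrnpm passed without apigenin replicate 1 or 2 (-0.5, adjusted p = 0.0437 and 0.043), libraries that enter this comparison only through the shared estimate of the spread. With array weights both Hnrnpa0 (-0.31, adjusted p = 0.0327) and Hnrnpm (-0.45, adjusted p = 0.0427) passed. In a fit of the 8 chrysin and untreated libraries alone, Hnrnpm fell by 0.5 (adjusted p = 9e-05) and Hnrnpr by 0.4 (adjusted p = 0.0173).

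Among SR proteins, Srsf11 rose with chrysin by 0.47 ± 0.18 (adjusted p = 0.0452). That call ended without any 1 of the untreated libraries or chrysin replicates 2, 3 or 4 (adjusted p = 0.0517 to 0.12) and after quantile normalization (0.31, adjusted p = 0.183). Srsf12 stood at 4.99, 5.54, 5.0 and 5.2 untreated, at 5.52, 4.83, 4.84 and 4.53 with apigenin, and at 5.06, 2.86, 3.89 and 4.15 with chrysin. Chrysin replicate 1, the deepest of its group, lay within the untreated range and replicate 2 rested on 3 reads. It fell by 1.19 ± 0.4 (adjusted p = 0.0195), a call that ended without chrysin replicate 2 (-0.82, adjusted p = 0.0694) or untreated replicate 2 (-1.07, adjusted p = 0.0606). The Srsf12 call also ended with limma-voom on the recovered reads (-0.95, adjusted p = 0.06) and after quantile normalization (-0.81, adjusted p = 0.0787). Srsf2 was at -0.33 ± 0.16 (adjusted p = 0.0967) with non-overlapping groups. It passed without apigenin replicate 4 (adjusted p = 0.0442), with array weights (-0.33, adjusted p = 0.026) and in the fit of the 8 chrysin and untreated libraries alone (-0.33, adjusted p = 0.00702). Srsf3, Srsf4, Srsf7, Srsf9 and Srsf10 did not pass, at -0.21 to -0.03. After quantile normalization Srsf10 passed as lower (-0.25, adjusted p = 0.0451) and Clk2 as higher (0.93, adjusted p = 0.0292). Clk3 rose by 0.38 ± 0.09 (adjusted p = 0.00297), while Clk1 was at 0.1 ± 0.15 (95% CI -0.22 to 0.42), Clk4 at 0.04 ± 0.14 (95% CI -0.26 to 0.34) and Clk2 at 0.63 ± 0.35 (95% CI -0.1 to 1.36).

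The third comparison set the flavones against each other at the same dose and time. Most members that differed were lower with apigenin than with chrysin. This held for 6 of 11 SR protein genes, 12 of 20 hnRNP genes and 3 of 4 CLK genes, against 26.1% of all genes tested, and 1 member, Hnrnpl, was higher with apigenin (24.7% of all genes). For SR proteins and CLK kinases 0 were higher, also by limma-voom, and at an unadjusted p under 0.05 the count was 1 and 0. The median differences, apigenin minus chrysin, were -0.34, -0.39 and -0.49 for the 3 families and 0.01 over all genes tested. Other genes of RNA splicing, given below in lists, were also more often lower with apigenin than with chrysin. All 4 values were lower with apigenin than with chrysin in 5 SR protein genes, 9 hnRNP genes and 3 CLK genes, against 21.5% of all genes, and all 4 were higher in Hnrnpl alone, against 19.5%. With apigenin replicates 1 and 3 alone, 4 SR protein, 8 hnRNP and 3 CLK genes were lower and 1 SR protein and 1 hnRNP gene higher, against 26.5% and 24.6% of all genes. With replicates 2 and 4 alone, 8, 15 and 3 were lower and 1 hnRNP gene higher, against 27.4% and 24.8%.

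The SR protein genes lower with apigenin than with chrysin were Srsf11 (-0.94 ± 0.18, adjusted p = 0.000739), Srsf3 (-0.82 ± 0.12, adjusted p = 3.48e-05), Srsf7 (-0.79 ± 0.15, adjusted p = 0.000414), Srsf2 (-0.58 ± 0.16), Srsf10 (-0.53 ± 0.11) and Srsf6 (-0.34 ± 0.13). The Srsf6 call (adjusted p = 0.0383) ended without any 1 of untreated replicate 3, apigenin replicate 2 or 4, or chrysin replicate 1, 2 or 3 (adjusted p = 0.0505 to 0.147), after quantile normalization (-0.23, adjusted p = 0.183), and with apigenin replicates 1 and 3 alone, where the difference was -0.08 (adjusted p = 0.567). With apigenin replicates 1 and 3 alone Srsf2 was at -0.22 (adjusted p = 0.129). For Srsf1, Srsf5, Srsf4 and Srsf9 the difference between the flavones did not pass, with 95% CIs of -0.52 to 0.01, -0.33 to 0.11, -0.19 to 0.34 and -0.35 to 0.15. With apigenin replicates 2 and 4 alone Srsf1 and Srsf5 passed (-0.43 and -0.28, adjusted p = 0.0085 and 0.0261). Srsf12 was at 0.94 ± 0.4 (95% CI 0.09 to 1.79, adjusted p = 0.0612) and passed without chrysin replicate 1 (1.3, adjusted p = 0.0112) and with apigenin replicates 1 and 3 alone (1.19, adjusted p = 0.0437).

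The widest differences among hnRNPs were in Hnrnpdl (-1.53 ± 0.16, adjusted p = 1.75e-06), Hnrnpa3 (-1.29 ± 0.3, adjusted p = 0.00179), Hnrnph1 (-1.12 ± 0.11, adjusted p = 6.12e-07), Hnrnpa1 (-0.95 ± 0.29, adjusted p = 0.012) and Hnrnpd (-0.84 ± 0.14, adjusted p = 8.87e-05). Hnrnpl was 0.74 ± 0.14 higher with apigenin (adjusted p = 0.000366). Hnrnpa0 was lower with apigenin (-0.48 ± 0.15, adjusted p = 0.0155), and not without chrysin replicate 3 (-0.32, adjusted p = 0.0592) or with apigenin replicates 1 and 3 alone (-0.31, adjusted p = 0.116). Hnrnpm, Hnrnpr and Hnrnpll did not pass, with 95% CIs of -0.88 to 0.16, -0.84 to 0.32 and -0.35 to 0.13. Hnrnpm passed without apigenin replicate 1 (-0.56, adjusted p = 0.0406) and with array weights (-0.57, adjusted p = 0.0474). With apigenin replicates 2 and 4 alone, Hnrnpm, Hnrnpr and Hnrnpll were lower than with chrysin (-0.9, -0.78 and -0.28, adjusted p = 7.02e-07, 0.000501 and 0.0481), and with replicates 1 and 3 alone they were at 0.17, 0.26 and 0.06 (adjusted p = 0.187, 0.22 and 0.676). Among the kinases Clk4 (-0.69 ± 0.14, adjusted p = 0.000729), Clk1 (-0.61 ± 0.15, adjusted p = 0.003) and Clk3 (-0.36 ± 0.09, adjusted p = 0.00392) were lower with apigenin, and Clk2 was at -0.32 ± 0.35 (95% CI -1.05 to 0.41).

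**Figure D5:**
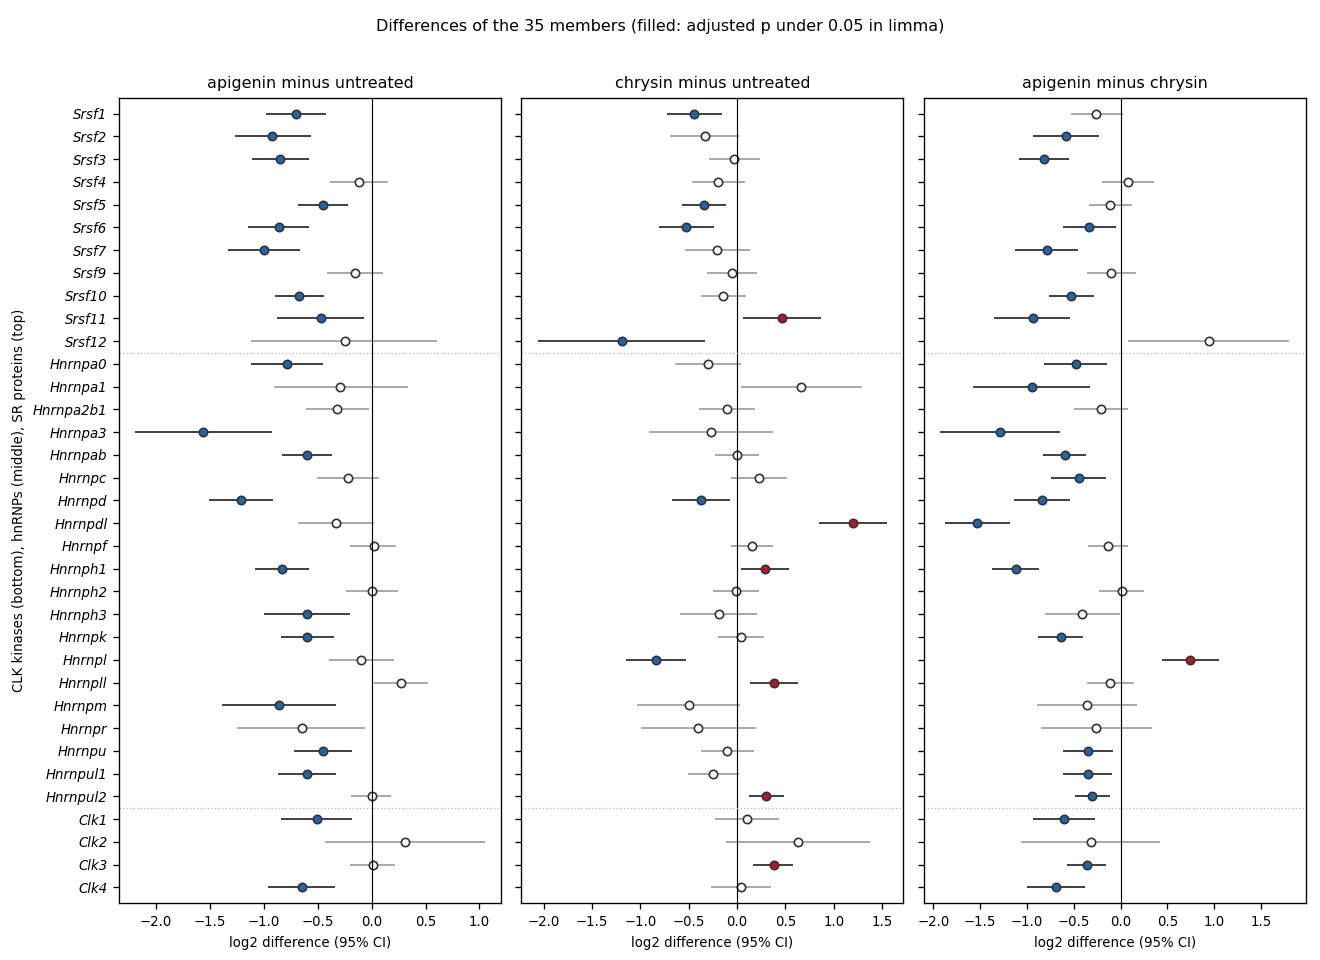
Log2 differences with 95% confidence intervals for the 35 members, in apigenin minus untreated (left), chrysin minus untreated (middle) and apigenin minus chrysin (right); filled points passed an adjusted p under 0.05, blue lower and red higher. The left panel holds 20 filled points, all lower, the middle panel 6 lower and 6 higher, and the right panel 21 lower and 1 higher.

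Other genes of RNA splicing were counted in 4 lists, to be read against the shares over all genes tested, 23.2% that fell and 23% that rose with apigenin and 26.7% and 26.3% with chrysin. Of 26 tested SR-related cofactors and SR protein kinases 16 fell (61.5%) and 2 rose (7.69%) with apigenin (median -0.36), among them Rsrc1 (-1.22 ± 0.16, adjusted p = 9.83e-06), Rsrc2 (-0.7 ± 0.12) and Rbm39 (-0.52 ± 0.09). With chrysin 8 fell (30.8%) and 6 rose (23.1%), near those shares (median -0.1), with Scaf4 at 1.78 ± 0.09 (adjusted p = 1.94e-10), the kinase gene Dyrk1a at 1.49 ± 0.1 (adjusted p = 1.12e-08), and Rnps1, which joins SR proteins to the exon junction complex, at 0.69 ± 0.1. Scaf4 and Dyrk1a also rose with apigenin (0.26 and 0.3, adjusted p = 0.0241 and 0.0276), and Rsrc1 also fell with chrysin (-0.55, adjusted p = 0.0076). Of 38 other hnRNP-complex and splicing regulator genes 17 fell (44.7%) and 6 rose (15.8%) with apigenin (median -0.24), including Mbnl1 (-1.14 ± 0.1, adjusted p = 8.51e-08), Celf2 (-1.7 ± 0.17, adjusted p = 8.7e-07) and Khdrbs1 (-1.43 ± 0.18, adjusted p = 1.09e-05). Mbnl1 and Celf2 also fell with chrysin (-0.38 and -0.89, adjusted p = 0.00357 and 0.000375). With chrysin 7 fell (18.4%) and 15 rose (39.5%) (median 0.15), and the exon repressor Ptbp2 rose by 1.88 ± 0.14 (adjusted p = 2.27e-08). Ptbp2 also rose with apigenin (0.9, adjusted p = 7.08e-05). The single-strand DNA binding protein gene Fubp1 rose by 1.33 ± 0.17 with chrysin (adjusted p = 2e-05) and by 1.0 with apigenin (adjusted p = 0.000322). The cold-inducible Cirbp fell by 1.16 ± 0.18 with chrysin (adjusted p = 5.09e-05) and by 0.45 with apigenin (adjusted p = 0.0484).

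With apigenin the core spliceosome genes were not above those shares in either direction, where 11 of 63 (17.5%) fell and 9 (14.3%) rose (median -0.14). The helicase Ddx46 fell by 1.5 ± 0.1 with apigenin (adjusted p = 6.79e-09) and was at 0.07 with chrysin (adjusted p = 0.567). Sf3b3 of the U2 particle and Prpf4 of the U4/U6 particle rose with apigenin, by 0.57 ± 0.09 and 0.96 ± 0.16 (adjusted p = 0.000105 and 0.000143), and with chrysin, by 0.46 and 1.01 (adjusted p = 0.000562 and 7.17e-05). With chrysin 28 of the 63 (44.4%) rose and 3 (4.76%) fell (median 0.26), including the helicase Dhx15 (0.99 ± 0.09, adjusted p = 1.34e-07), Snrnp48 of the minor spliceosome (2.45 ± 0.28, adjusted p = 9.79e-06) and Snrpa1 of the U2 particle (1.57 ± 0.21, adjusted p = 1.46e-05). Snrnp48 and Snrpa1 also rose with apigenin (0.98 and 0.6, adjusted p = 0.0114 and 0.0281), and Dhx15 was at 0.02 (adjusted p = 0.9). Of 15 genes of nonsense-mediated decay and the exon junction complex 3 rose (20%) and 2 fell (13.3%) with apigenin (median 0.11), not above the shares over all genes. With chrysin 5 rose (33.3%) and 0 fell (median 0.13). The decay kinase Smg1 rose with both, by 0.61 ± 0.13 (adjusted p = 0.000841) and 1.06 ± 0.13 (adjusted p = 3.1e-06). Eif4a3, a core subunit of the exon junction complex, fell by 0.47 ± 0.1 with apigenin (adjusted p = 0.00104) and was at -0.01 with chrysin (adjusted p = 0.961). Smg5 rose with apigenin by 0.53 ± 0.14 (adjusted p = 0.00481), and Upf2 and Casc3 rose with chrysin by 0.91 ± 0.12 and 0.67 ± 0.09 (adjusted p = 7.71e-06 and 1.48e-05). Between the flavones, every list was lower with apigenin more often than all genes tested (26.1%). The shares were 53.8% for SR-related cofactors and kinases, 52.6% for other regulators, 47.6% for the core spliceosome and 46.7% for decay and junction genes. In the same order 3.85%, 5.26%, 1.59% and 6.67% were higher with apigenin, against 24.7%.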

How the data were processed

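The submitters' processing notes name STAR, HTSeq, DESeq2, FastQC, cutadapt and mouse build mm9, and the labels' protocols give a stranded mRNA kit. The sources used here give no versions, gene annotation or strand setting. The deposited values are log2 of a normalized read count plus 1, per the labels' log2 statement and the values themselves. After 2 to the power of each value, minus 1, 99.966% to 100.0% of values under 500 reads were within 0.05 reads of a whole multiple of 1 step per library. Library totals were recovered from these steps. The filter kept 12198 of 24458 genes, those whose normalized count averaged 10 or more. They were fitted in limma 3.58.1 (R 4.3.3) with a mean for each group, on all 12 libraries, using trended and robust variance moderation. Two-sided p-values were adjusted by Benjamini-Hochberg over every gene tested, and calls were made at adjusted p under 0.05. All adjusted p-values are limma's. A difference on this scale understates changes of low genes. The fitting steps were checked on simulated counts of independent libraries with few genes changed. That check does not cover libraries that divide into pairs, as those of apigenin did.

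Members and lists were chosen with earlier results of these data known. Named in full were all SR and CLK genes, the 6 hnRNP genes with the largest absolute difference in each comparison (10 genes), and from each splicing list up to 3 with the smallest p in each comparison with untreated. Comparisons with untreated share the 4 untreated libraries. Alternatives were a replicate block, 2 normalizations, other filters, pseudocounts, variance models and thresholds, the 8 samples of each comparison, limma-voom on recovered reads, and left-out libraries. Promoter sequences are RefSeq's.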

Additional observations from a re-analysis of the deposited data

Results flagged for a closer look

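Among the 105 groups of 4 libraries (35 members in 3 groups), a single library stood far from the other 3 in 2 cases, where chance gives about 1 in 20 groups. Hnrnpa0 was at 9.53 in chrysin replicate 3, with the other 3 chrysin libraries at 8.84 to 8.89. Hnrnpf was at 11.02 in untreated replicate 1, with the other 3 untreated libraries at 10.58 to 10.59.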

How the results depend on the processing

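With apigenin against untreated cells, under every left-out library 7 to 8 SR protein genes and 9 to 12 hnRNP genes were lower, and 2 CLK genes were lower. Counts that moved by over 1.5 times were small ones. With apigenin replicates 1 and 3 alone 1 hnRNP gene was higher than in untreated cells, 1 CLK gene was lower, and 1 SR protein gene was higher than with chrysin. At adjusted p under 0.01 1 CLK gene was lower with apigenin, and with chrysin 0 SR protein genes were higher, 2 SR protein genes lower and 1 hnRNP gene lower. The count of 0 SR protein genes higher with chrysin was also given by quantile normalization, no filter, and no trend or robust estimation. With chrysin, array weights gave 7 hnRNP genes higher and 5 lower, the 8 samples alone gave 5 lower, no trend or robust estimation gave 1 lower, and quantile normalization gave 2 CLK genes higher. Leaving out 1 library gave 0 to 1 hnRNP genes higher with apigenin, 0 to 1 SR protein genes higher and 1 to 4 hnRNP genes lower with chrysin, and 0 to 1 SR protein genes higher with apigenin than with chrysin.

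Directions turned in differences that had not passed the test. Against untreated cells with apigenin, Clk3 was at -0.02 after median centring and ranged from -0.03 to 0.08 without 1 library, Hnrnpl ranged from -0.21 to 0.03 and was at 0.24 with apigenin replicates 1 and 3 alone, and Clk2 was at -0.03 with replicates 2 and 4 alone. With chrysin, Clk1 was at -0.02 after quantile normalization, Srsf9 at 0.01 with array weights, and without 1 library Clk4 ranged from -0.04 to 0.1, Srsf3 from -0.12 to 0.06 and Srsf9 from -0.11 to 0.02. Between the flavones, apigenin replicates 1 and 3 alone gave 0.02 for Clk2, 0.06 for Hnrnpll, 0.17 for Hnrnpm, 0.26 for Hnrnpr and 0.05 for Srsf5, and quantile normalization gave 0.19 for Srsf5. The causes of these shifts were not tested.

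Same-numbered libraries of different groups correlated at -0.096 to 0.102 in their deviations from the group means, so the numbers were not taken to pair libraries. With the replicate block, Hnrnph1 with chrysin was at 0.29 (adjusted p = 0.0524), which left 3 hnRNP genes higher with chrysin in place of 4, and all other family counts were as without the block. Depth limits Srsf12, Clk2, Hnrnpa1 and Hnrnpa3, which had 3 to 157 reads per library.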
